A study of Mus musculus with 24 samples.

Results

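Chemokines and the receptors that read them were followed through 4 tissues, brain, liver, skeletal muscle and heart, of male *Rap1* knockin and wild-type mice. The members are 52 mouse genes, 34 ligands and 18 receptors, among 21368 genes that the array names. They were chosen by symbol, as every Ccl, Cxcl, Cx3cl1 or Xcl1 ligand and every Ccr, Cxcr, Cx3cr1 or Xcr1 receptor whose accession is carried by a probe. The genes have 63 probes between them, and where a gene has several (8 genes), the probe with the highest mean over all 24 arrays stands for it. The pattern also matches 10 symbols that no probe is named for here, among them Cxcl11, Ccl27b and the Ccl21 genes, and these were not analysed. WT mice and homozygous knockin mice (*Rap1* KI/KI, labelled RAP1 MUT) were compared, 3 of each, and each mouse gave all 4 tissues. The knockin was made with CRISPR/Cas9 and carries the I312R change in RAP1, the product of *Terf2ip*, in every cell, and the line had been crossed to C57BL/6N mice before use. The age was 5 months for WT1 and KI1, and 2 months for the rest. *Terf2ip* itself was well above background on all 24 arrays and its log2 difference between the genotypes was 0.12 (liver), -0.02 (brain), -0.41 (heart) and -0.28 (muscle), which does not check the labels, since a change of 1 residue leaves the transcript in place.

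Chemokines are small secreted proteins that bind G protein-coupled receptors on leukocytes and other cells and direct their movement along a gradient. Some, such as *Cxcl12*, *Cxcl14* and *Ccl25*, are made steadily by resting stroma or epithelium, whereas others, such as *Ccl2* and *Cxcl10*, are made in bursts when cells sense infection, damage or interferon. Ligands and receptors are redundant, so that a receptor often has several ligands, but some pairs, such as CX3CL1 on neurons and CX3CR1 on microglia, are exclusive. The genes lie in clusters that arose by duplication. By the RefSeq names, 14 of the 52 members are on chromosome 11, 10 are on chromosome 5 (all of them ligands) and 11 are on chromosome 9 (all of them receptors).

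A level is the processed signal of a probe over the 75th percentile of its array, as log2, so that 0 is that percentile and a difference of 1 is 2-fold. Probes differ in how brightly they report a transcript, so that levels were compared between arrays and never between genes. The 75th percentile lay between 470.7 and 1389 intensity units, and 56.5% to 72.7% of probes were well above background. The tissues carried their defining transcripts. The summed level of 6 hepatocyte genes (linear scale, array percentile = 1) was 1820 to 3510 in the livers, that of 6 cardiomyocyte genes 1510 to 2760 in the hearts and that of 6 muscle fibre genes 3090 to 3980 in the muscles, while neuronal genes summed to 187 to 315 in the brains. Some arrays of both genotypes stood apart within their tissue. In the brain of KI3, macrophage genes summed to 144 against 46.1 to 64.1 in the other 5 brains. In the muscle of KI3, neuronal genes summed to 50.8 against 11.9 to 18.9 (*Syt1* of that list had no value there), and in the muscle of KI1 neutrophil genes summed to 96.1 against 1.59 to 13.9. In the hearts of KI1 and KI3, adipocyte genes summed to 170 and 382 against 1.16 to 35.9, the lowest of which was WT1. That heart also had the atrial gene *Myl7* at -2.41 against 5.03 to 8.33. Cerebellar genes summed to 75 in the brain of KI1 and at most 37.6 in the others, and hepatocyte genes to 4.69 in the brain of WT1 and at most 0.625. In bulk tissue, fewer cells of a type and less RNA per cell cannot be told apart.

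Promoter sequences are shown for 4 ligands that the results below turn on: *Cxcl10*, *Cxcl1* and *Cxcl9*, inducible ligands that varied between tissues and mice, and *Ccl28*, which was higher in KI mice in each tissue by values that did not pass adjustment. RefSeq (GRCm38.p6) gave a promoter of 300 bases, from 250 before to 50 after the transcription start, for 38 of the 52 members. Each is printed 5′ to 3′ on the strand of the gene. Capitals mark a match to GGGA, any 2 bases, T, any base and CC, a form of the site of NF-kappaB, or to GAAA, any 2 bases and GAAA, the core of the interferon-stimulated response element, on either strand, and no overlap between the 2 motifs was found in these 4.
Cxcl10: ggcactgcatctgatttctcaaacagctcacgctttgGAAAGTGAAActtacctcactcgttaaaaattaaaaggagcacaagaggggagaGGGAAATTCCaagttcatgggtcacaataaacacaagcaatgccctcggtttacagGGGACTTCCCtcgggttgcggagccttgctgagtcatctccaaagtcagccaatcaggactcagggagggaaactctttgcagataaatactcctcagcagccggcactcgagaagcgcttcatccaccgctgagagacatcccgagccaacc
Cxcl1: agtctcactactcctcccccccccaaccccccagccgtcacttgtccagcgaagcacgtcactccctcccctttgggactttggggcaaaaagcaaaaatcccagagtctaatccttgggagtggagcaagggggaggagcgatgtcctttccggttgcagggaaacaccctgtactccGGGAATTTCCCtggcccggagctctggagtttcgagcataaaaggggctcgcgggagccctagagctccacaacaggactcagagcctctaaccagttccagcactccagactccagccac
Cxcl9: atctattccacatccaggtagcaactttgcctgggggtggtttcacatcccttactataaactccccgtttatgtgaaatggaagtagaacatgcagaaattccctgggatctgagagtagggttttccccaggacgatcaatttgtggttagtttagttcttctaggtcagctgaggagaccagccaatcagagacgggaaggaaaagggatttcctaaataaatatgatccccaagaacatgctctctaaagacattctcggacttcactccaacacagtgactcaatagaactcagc
Ccl28: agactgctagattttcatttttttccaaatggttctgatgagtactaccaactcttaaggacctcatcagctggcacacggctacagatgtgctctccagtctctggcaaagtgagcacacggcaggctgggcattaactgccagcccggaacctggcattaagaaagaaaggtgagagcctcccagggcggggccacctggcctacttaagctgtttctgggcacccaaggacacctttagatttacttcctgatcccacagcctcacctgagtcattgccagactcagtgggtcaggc
The *Cxcl10* promoter (chr5:92348840-92349139, minus strand) held 1 interferon-type match that begins 213 bases before the start, and 2 NF-kappaB-type matches at 159 and 103 bases. That of *Cxcl1* (chr5:90890995-90891294, plus strand) held 1 NF-kappaB-type stretch at 71 bases, made of overlapping matches. The windows of *Cxcl9* (chr5:92328030-92328329, minus strand) and *Ccl28* (chr13:119623569-119623868, plus strand) held neither string of letters. Among the 42 promoters of members, 16.7% held the NF-kappaB-type motif, against 4.01% of all 32851 promoters in the table. The members were *Cxcl1*, *Cxcl2*, *Cxcl3*, *Cxcl10*, *Ccl1*, *Ccr3* and *Ccr6*. The interferon-type motif was in 7.14% of the promoters of members and 3.44% of all, in *Cxcl10*, *Cxcl14* and *Ccl19*. A match describes letters, not binding.

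Of the 52 members, 28 were measured in all 4 tissues (19 ligands and 9 receptors), 13 in some and 11 in none, where measured means that 3 or more of a tissue's 6 arrays were well above background. Those in no tissue were the ligands *Ccl1*, *Ccl20*, *Ccl22*, *Ccl26*, *Cxcl2*, *Cxcl3*, *Cxcl15* and *Cxcl17* and the receptors *Ccr1*, *Ccr4* and *Xcr1*. Of these 11, 9 were at background on all 24 arrays. Tests could be made for 37 members in liver, 35 in brain, 37 in heart and 32 in muscle tissue. No member was saturated. *Ccl19* and *Ccl27a* have near-identical copies in the mouse genome, so that their probes may report more than 1 gene.

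Which tissue makes which chemokine was asked with limma on all 24 arrays, with the mean of both genotypes in each tissue and with p adjusted over all probes tested in the pair. More members were lower than higher in the brain against each of the other tissues, and the same was true of all probes. Of 33 members tested in both, 18 were higher in the liver than in the brain (49.8% of all probes were) and 8 were higher in the brain (27.7%). Heart against brain gave 19 members higher in the heart (43.1% of all probes) and 7 higher in the brain (24.5%), out of 33. Muscle against brain gave 16 of 30 higher in the muscle (47.2%) and 6 higher in the brain (24.5%). The median log2 difference of the members was 1.23 for liver minus brain, -1.68 for brain minus heart and -1.23 for brain minus muscle, whereas the medians over all probes were 0.51, -0.34 and -0.45.

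Among the other 3 tissues the members split both ways. Of 33 members, 9 were higher in the liver than in the heart (36.5% of all probes) and 14 were higher in the heart (32.0%). Liver against muscle gave 11 of 29 higher in the liver (35.7%) and 7 higher in the muscle (37.2%). Heart against muscle gave 12 of 32 higher in the heart (21.9%) and 6 higher in the muscle (25.6%). All livers were on 1 slide and all muscles on another. With the slide as a block, a setting chosen after the data were seen, 5 members were higher in the heart and 4 in the liver for that pair, and 2 were higher in the muscle and 7 in the liver. Adjusted p-values under this setting are given below where it removed the call of a difference named there. Liver and brain were extracted with another kit and other beads than heart and muscle, so that kit and tissue cannot be told apart in comparisons across the 2 kinds. Over the 28 members measured throughout, the highest mean lay in the heart for 11, the liver for 8, the brain for 5 and the muscle for 4. The highest tissue differed from all 3 others for *Ccl2*, *Ccl7*, *Ccl19*, *Ccr6* and *Ccr7* in the heart, *Ccl9*, *Cxcl1*, *Cxcl10* and *Cxcl12* in the liver, *Ccl27a*, *Cx3cl1* and *Cx3cr1* in the brain and *Ccl25* in the muscle. With the slide as a block, at least 1 of these calls was lost for each of the 5 genes of the heart, for *Cxcl12* and for *Ccl25*.

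**Figure D1:**
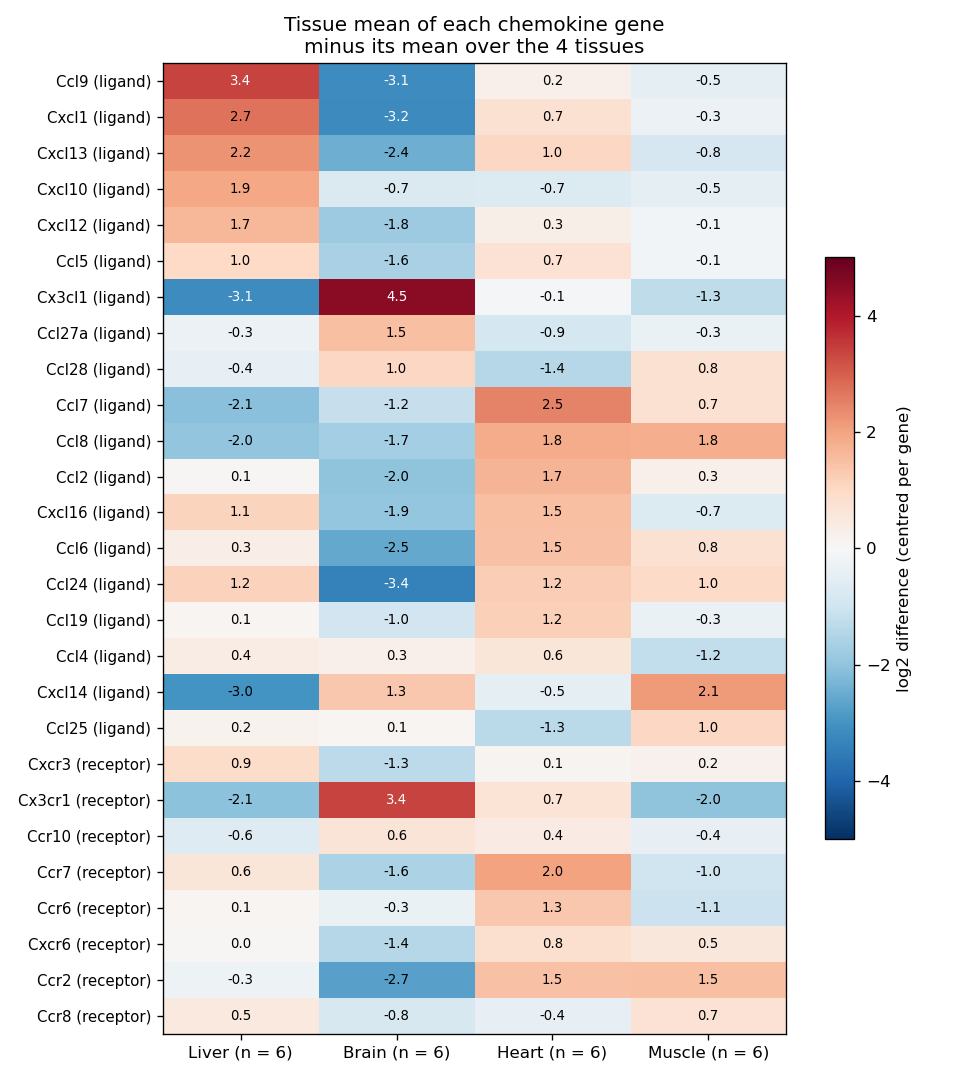
Mean level of the members measured in all 4 tissues (n = 6 arrays a tissue; 1 receptor is not drawn), minus the mean of that gene over the tissues, on a log2 scale. Red is above and blue below the gene's own mean, so that rows can be read across but not against each other. The brain column is mostly blue, with its strongest reds for Cx3cl1, Cx3cr1, Ccl27a, Cxcl14 and Ccl28.

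The fractalkine pair was highest in the brain. The level of *Cx3cl1*, a membrane-bound chemokine of neurons and endothelium, ran from 6.13 to 6.85 in the brains (median 6.38), from 0.75 to 2.37 in the hearts (median 1.99), from -0.40 to 3.49 in the muscles (median 0.00) and from -1.73 to -0.68 in the livers (median -1.22). Every brain was above every other sample, and the high value of the muscles belonged to KI3 alone. The brain exceeded the heart 24.6-fold (log2 4.62 ± 0.43, standard error, adjusted p = 1.1e-08), the muscle 55.0-fold and the liver by a log2 difference of 7.64. *Cx3cr1*, the receptor by which microglia and some monocytes sense it, was also highest in the brain and next in the heart, with 2.90 to 4.13 in the brains, 0.27 to 0.78 in the hearts (median 0.53), -3.84 to 0.74 in the muscles (median -2.47) and -2.61 to -1.76 in the livers (median -2.30). It was 6.59-fold higher in the brain than in the heart (adjusted p = 5.4e-06), 41.9-fold higher than in the muscle and 43.4-fold higher than in the liver, while muscle and liver did not pass the test against each other. All 3 probes of the gene gave brain first and heart second.

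Among the ligands made by resting tissue, *Cxcl12* was highest in the liver, *Ccl25* in the muscle, and *Cxcl14* in muscle and brain. *Cxcl12*, which holds blood stem cells and lymphocytes through CXCR4, was at 5.96 to 6.59 in the livers (median 6.13), 3.55 to 5.51 in the hearts (median 5.05), 3.68 to 4.96 in the muscles (median 4.40) and 2.04 to 3.14 in the brains (median 2.78). The livers were above all other samples and the brains below. Liver exceeded heart 2.55-fold (adjusted p = 5.3e-05), muscle 3.45-fold and brain 11.2-fold, and heart and muscle did not pass the test against each other. With the slide as a block, the calls over heart and muscle were lost (adjusted p = 0.13 and 0.28). Its receptor *Cxcr4* was well above background on 1 of 6 liver arrays. It was 3.55-fold higher in the heart (adjusted p = 0.0026) and 2.30-fold higher in the muscle (adjusted p = 0.033) than in the brain. The latter call was lost without KI1, WT2 or WT3 (adjusted p = 0.13, 0.082 and 0.058), with the authors' z-scores (0.085) and with the slide as a block (0.46). *Cxcl14*, a chemokine of epithelia, muscle and neurons, was at 5.07 to 5.85 in the muscles (median 5.38), 4.14 to 4.92 in the brains (median 4.73), 1.25 to 3.63 in the hearts (median 3.00) and -1.27 to 1.27 in the livers (median 0.54). Muscle and brain did not pass the test against each other, and both were above the heart (6.24-fold and 3.60-fold) and the liver (34.8-fold and 20.1-fold).

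*Ccl25*, which draws T cell precursors into thymus and gut through CCR9, was highest in the muscle, at 2.14 to 2.83 (median 2.32), against 1.14 to 1.76 in the livers, 0.93 to 2.08 in the brains and -0.36 to 0.26 in the hearts. Muscle samples lay above all others, by 1.80-fold over the liver (adjusted p = 0.0005, and 0.3 with the slide as a block) and 5.18-fold over the heart. The call over the brain was also lost with the slide as a block (adjusted p = 0.15). By a second, dimmer probe, *Ccl25* had means of -3.38 in the muscle, -3.48 in the liver and -4.36 in the brain. Its receptor *Ccr9* was measured in the liver, brain and heart and was 1.61-fold higher in the liver than in the heart (adjusted p = 0.022). This call was lost without KI3, WT2 or WT3 (0.06, 0.13 and 0.053) and with WT mice alone (0.18). It was also lost with normexp background correction (0.2) and with the slide as a block (0.13). *Ccl27a*, a skin chemokine that recruits T cells through CCR10, was at 4.57 to 5.18 in the brains and between 2.06 and 3.57 elsewhere. Brain samples did not overlap with the rest, and the brain was 3.40-fold above the liver, 3.52-fold above the muscle and 5.17-fold above the heart (adjusted p = 3e-10). The liver stood 1.52-fold above the heart by this probe, but the mean over its 3 probes turned this difference (-0.28). It missed the threshold without KI1, with quantile normalization and with the slide as a block (adjusted p = 0.055, 0.16 and 0.097). *Ccr10* was 2.42-fold higher in the brain than in the liver (adjusted p = 0.001).

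*Ccl28*, a mucosal chemokine that also signals through CCR10 and CCR3, was lowest in the heart, where 4 of 6 arrays were above background (-6.95 to -4.19), and ran from -5.16 to -3.37 in the livers, from -4.43 to -2.17 in the muscles and from -3.26 to -1.83 in the brains. Brain and muscle did not pass the test against each other. Brain exceeded liver 2.71-fold (adjusted p = 0.0005) and heart 5.44-fold. The call of liver over heart was lost without KI1 or WT3, with WT mice alone and with the slide as a block (adjusted p = 0.062, 0.067, 0.079 and 0.18). It was also lost with normexp background correction, where the log2 difference was 0.22 (adjusted p = 0.26). *Ccr3*, the receptor of eosinophils, was 2.34-fold higher in the liver than in the brain (adjusted p = 0.013) and was measured in these 2 tissues only, but with WT mice alone the call was lost (adjusted p = 0.12).

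The eosinophil and myeloid ligands were low in the brain. *Ccl11*, eotaxin, was at 1.81 to 2.55 in the muscles (median 2.02) and -2.13 to 0.64 in the hearts (median -0.12), and was not well above background on any brain array. The muscle was 5.32-fold above the heart (adjusted p = 6.9e-06) and at least 340-fold above the brain, and the heart at least 64-fold above the brain. *Ccl24*, a second eotaxin made by macrophages, was at -0.68 to 0.89 in the livers, hearts and muscles together, which did not pass the test against each other, and at -5.34 to -3.89 in the brains. Heart exceeded brain 24.6-fold (adjusted p = 5.8e-11). *Ccl9*, a rodent chemokine of myeloid cells, was at 4.66 to 5.46 in the livers (median 5.20), 1.58 to 2.38 in the hearts, 0.34 to 2.28 in the muscles and -2.21 to 0.10 in the brains. Its liver level was above the brain by 6.52 ± 0.34 on the log2 scale (standard error, adjusted p = 1.1e-12) and 8.82-fold above the heart. *Ccl6*, on the same chromosome, had heart (2.68 to 3.32), muscle (1.05 to 3.55) and liver (1.20 to 2.61) above brain (-1.77 to 0.80), with heart 2.15-fold above liver (adjusted p = 0.02). That last call was lost without KI1, WT1, WT2 or WT3 (adjusted p = 0.053, 0.085, 0.05 and 0.056), and with the slide as a block, where liver minus heart was -0.65 (log2, adjusted p = 0.52).

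Of the monocyte ligands of CCR2, *Ccl2*, *Ccl7* and *Ccl12* were highest in the heart and for *Ccl8* heart and muscle did not pass the test against each other. *Ccl2*, the main signal that draws monocytes from blood, was at 0.16 to 1.37 in the hearts (median 0.78), -1.38 to 0.59 in the muscles, -1.88 to 0.67 in the livers and -4.17 to -0.04 in the brains. The heart was 2.75-fold above the muscle (adjusted p = 0.028), 3.16-fold above the liver and 13.4-fold above the brain. Its call over the muscle was lost without KI1, WT1 or WT2 (adjusted p = 0.11, 0.14 and 0.088), and that over the liver without WT1 (adjusted p = 0.052). With the slide as a block the log2 difference of heart minus muscle was 0.94 and that of liver minus heart -1.02 (adjusted p = 0.35 and 0.42). *Ccl7* was at -0.86 to 0.59 in the hearts and at most -0.95 in any other sample, and the heart exceeded the muscle 3.37-fold (adjusted p = 0.0018, and 0.17 with the slide as a block) and the liver 23.9-fold. *Ccl8* was 14.4-fold higher in the heart and 14.1-fold higher in the muscle than in the liver (adjusted p = 4.9e-05 and 4.8e-05, and 0.053 and 0.097 with the slide as a block). *Ccl12*, measured in 3 tissues, was 2.57-fold higher in the heart than in the brain (adjusted p = 0.026) and 5.26-fold higher than in the muscle. Leaving out any mouse other than KI3 lost the first of these calls (adjusted p = 0.07 to 0.092), as did the slide as a block (0.15) and the authors' z-scores (0.061). The receptor *Ccr2* was at -2.25 to -0.67 in the hearts and muscles together, -3.61 to -3.08 in the livers and -7.03 to -3.20 in the brains, where 4 of 6 arrays were above background. Heart exceeded liver 3.33-fold (adjusted p = 0.00056, and 0.33 with the slide as a block).

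*Ccl5*, made by T cells, was lowest in the brain. It was 6.13-fold higher in the liver, 5.01-fold in the heart and 2.81-fold in the muscle (adjusted p = 0.015) than in the brain, the last lost without KI1, KI2, WT1 or WT3 (adjusted p = 0.053, 0.17, 0.071 and 0.057). With the slide as a block, brain minus muscle was -0.97 (log2, adjusted p = 0.43). *Ccl3*, a ligand made by activated macrophages, was measured in brain and liver only, where the test was not passed, and *Ccl4* in all 4 tissues, with the muscle lowest. Each of its 3 calls was lost without KI1, WT2 or WT3 and with the slide as a block (adjusted p = 0.15 to 0.28), and with normexp background correction the differences of *Ccl4* between liver and muscle and between brain and muscle turned (-0.06 and -0.07).

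The interferon-inducible ligands of CXCR3, which recruit activated T cells, had their highest means in the liver. *Cxcl10* was at 0.23 to 1.51 in the livers (median 0.72), -2.55 to -1.10 in the hearts, -3.04 to -0.39 in the muscles and -3.54 to 1.33 in the brains. The liver exceeded brain, heart and muscle 6.27-fold, 6.15-fold and 5.38-fold (adjusted p = 0.00024, 0.00034 and 0.00063). *Cxcl9* was at 0.23 to 1.40 in the livers, -0.77 to 0.59 in the hearts and -1.93 to 1.01 in the muscles, was above background on 1 of 6 brain arrays and was 2.90-fold higher in liver than in muscle (adjusted p = 0.022), but not without KI1 or WT2 (0.062 and 0.15) and not with the slide as a block, where the log2 difference was 0.78 (0.68). *Cxcr3* was 4.69-fold higher in the liver, 2.73-fold in the heart and 2.90-fold in the muscle than in the brain (adjusted p = 4.2e-05, 0.0032 and 0.0019), the last 2 lost with the slide as a block (0.051 and 0.26). Genes of the interferon gamma response summed to 100 to 137 in the livers, 38.3 to 50.2 in the hearts, 21.2 to 40.3 in the muscles and 6.14 to 18.1 in the brains, and their part in the order of these ligands was not tested.

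*Cxcl16*, a transmembrane ligand and scavenger receptor, ran from 0.58 to 0.89 in the hearts, from 0.00 to 0.47 in the livers, from -1.84 to -1.21 in the muscles and from -3.25 to -1.15 in the brains. Heart and liver did not pass the test against each other, and the heart was 4.62-fold above the muscle (adjusted p = 2.1e-07) and 11.0-fold above the brain. Its receptor *Cxcr6*, of T and NKT cells, was 4.71-fold higher in the heart, 3.90-fold in the muscle and 2.76-fold in the liver than in the brain (adjusted p = 2.4e-05, 9.4e-05 and 0.0014), and the call for the muscle was lost with the slide as a block (0.054).

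The receptors that guide lymphocytes into lymphoid tissue were highest in the heart. *Ccr7*, which brings T cells and dendritic cells to lymph nodes, was at -1.38 to 0.25 in the hearts (median -0.45), -2.23 to -1.70 in the livers, -4.17 to -3.04 in the muscles and -4.72 to -3.03 in the brains. Hearts lay above all other samples, by 2.63-fold over the liver (adjusted p = 0.00014), 8.02-fold over the muscle and by a log2 difference of 3.59 over the brain. With the slide as a block the call over the liver was lost (adjusted p = 0.093). Its ligand *Ccl19* was 2.13-fold higher in heart than in liver (adjusted p = 0.0032, 0.36 with the slide as a block and 0.069 with WT mice alone), and 2.90-fold and 4.45-fold higher than in muscle and brain, the call over the muscle being lost with WT mice alone (0.088). *Cxcr5*, of B cells, was at -2.71 to -1.13 in the hearts and -3.87 to -3.17 in the livers, which differed 2.51-fold (adjusted p = 0.0071, and 0.31 with the slide as a block). It was not well above background on any brain array, so that the heart was at least 18-fold and the liver at least 7.2-fold above the brain. Its ligand *Cxcl13* spread widely within tissues, from -5.87 to -0.14 in the hearts alone, and the liver was 25.6-fold above the brain (adjusted p = 1.6e-05).

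Of the neutrophil ligands, *Cxcl1* was the one measured throughout. It was at -1.64 to 1.48 in the livers (median 0.62), -2.08 to -0.96 in the hearts, -3.55 to -2.07 in the muscles and -7.12 to -3.14 in the brains, and its liver level was 3.93-fold above the heart (adjusted p = 0.0015), 7.97-fold above the muscle and 59.1-fold above the brain. *Cxcl5* was measured in brain, heart and liver and was 6.97-fold higher in the brain than in the liver (adjusted p = 0.0091, and 0.2 with the slide as a block). The receptors *Cxcr1* and *Cxcr2* were measured in 1 tissue each, the liver and the heart. *Xcl1*, lymphotactin, was measured in the liver alone, at least 3-fold above the brain. *Ccl17*, a ligand of CCR4, was highest in the brain, at -2.12 to -1.12 there against -5.51 to -4.10 in livers and hearts, and 12.6-fold higher in the brain than in the liver (adjusted p = 4.7e-08). Among the other receptors, *Ccr6* was 3.19-fold higher in the heart than in the brain (adjusted p = 0.0012, and 0.17 with WT mice alone). Its call of heart over liver was lost with WT mice alone, where liver minus heart was -0.59 (log2, adjusted p = 0.47), with the slide as a block (0.26) and without 4 KI arrays that stand apart, those of the KI3 brain and muscle and the KI1 and KI3 hearts (0.1). *Ccr8* was 2.84-fold higher in the muscle than in the brain (adjusted p = 6.1e-05). A second, dimmer probe of this gene was well above background on 5 liver arrays and on 0 arrays of muscle, brain and heart.

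Whether the knockin altered these genes was asked within each tissue, KI against WT. By limma with adjustment over all probes, 0 members passed in any tissue, and the same was true of all probes, with 0% of 35240 for liver, 0% of 37836 for brain, 0% of 34848 for heart and 0% of 32382 for muscle. At an unadjusted p under 0.05, the liver had 1 of 37 members (2.13% of all probes), the brain 0 of 35 (2.62%), the heart 3 of 37 (7.51%) and the muscle 0 of 32 (2.48%). All 4 calls had KI above WT. In the heart, *Ccl28* and *Cxcr2* each had 1 WT and 3 KI arrays above background, and so passed the filter through the KI mice. With normexp background correction their differences were 0.05 and 0.18. Separation of the 3 KI from the 3 WT mice was seen for 1 liver member (5.84% of all probes), 5 brain members (7.73%), 3 heart members (14.7%) and 2 muscle members (6.44%). With 3 mice a side, p = 0.1 is the smallest value of an exact permutation test. The median log2 difference of the members was 0.07 for liver, 0.44 for brain, 0.00 for heart and 0.06 for muscle, with 23, 27, 18 and 18 members higher in KI mice, whereas over all probes it was -0.01, -0.05, -0.02 and -0.07.

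**Figure D2:**
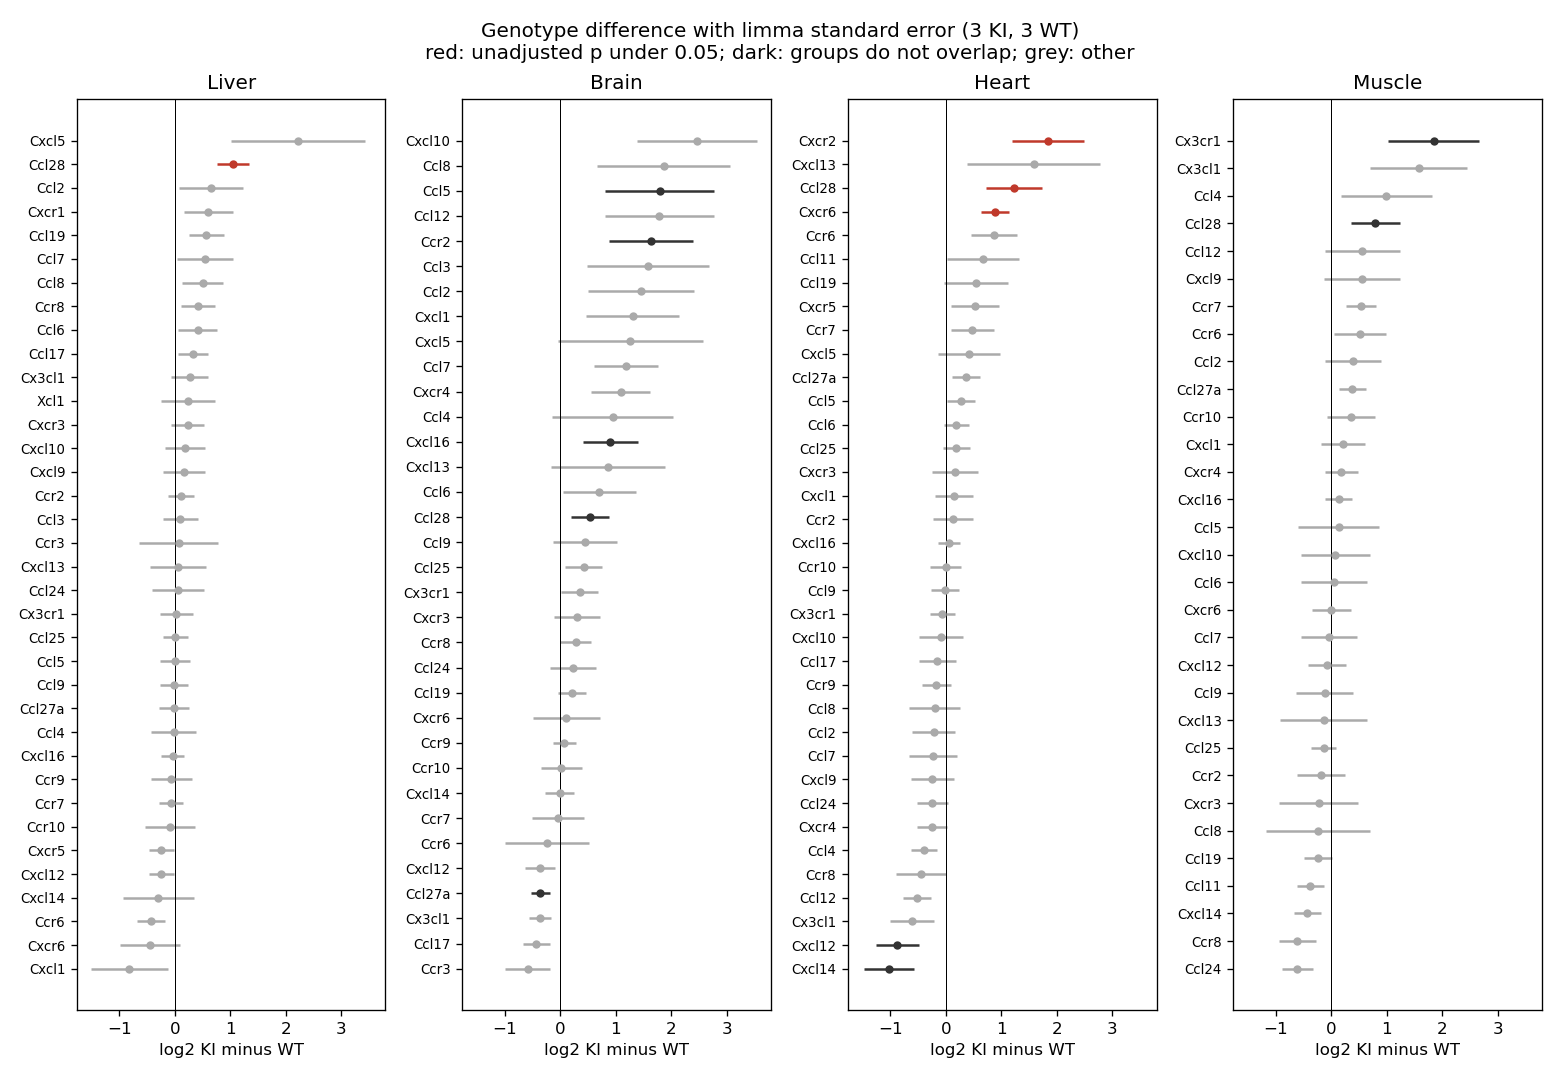
Log2 difference KI minus WT of the members tested in the tissue (1 receptor is not drawn), with the limma standard error (3 mice a genotype), ordered within each panel. Red points have an unadjusted p under 0.05, dark points are the others whose groups do not overlap, and 0 members passed the adjusted threshold. By the probes drawn, Ccl28 and Ccl6 lie to the right of 0 in all 4 panels, and Cxcl12 and Cxcl14 to the left. A second probe of Cxcl12, not drawn, was above 0 in the brain and the heart.

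The mean of *Ccl28* was higher in KI mice in each tissue, without passing adjustment in any. Of the 28 members tested in all 4 tissues, 2 were higher in KI mice in each, *Ccl28* and *Ccl6*, the latter by 0.05 ± 0.60 (standard error) in the muscle. Another 2, *Cxcl12* and *Cxcl14*, were lower in each by the probes used, with *Cxcl14* at -0.01 ± 0.26 (standard error) in the brain. A second probe of *Cxcl12* was higher in KI mice in the brain (0.26) and the heart (0.33). The share of all probes with the same sign in all 4 tissues was not counted, so these counts are not read as a result. In the livers *Ccl28* was at -4.50, -5.16 and -4.79 in WT1 to WT3 and at -3.71, -4.22 and -3.37 in KI1 to KI3. The 3 KI livers were above the 3 WT livers, by a log2 difference of 1.05 ± 0.29 (standard error), or 2.07-fold (limma unadjusted p = 0.0082, adjusted p = 1). Of these arrays, 2 WT and 3 KI were well above background. In the hearts it was at -5.06, -5.72 and -6.95 in WT and at -5.19, -4.68 and -4.19 in KI mice, where WT1 lay among the KI mice and the difference was 1.23 ± 0.51 (unadjusted p = 0.048, adjusted p = 0.65). Here 1 WT and 3 KI arrays were above background, so that the gene passed the filter through the KI mice.

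In the brains *Ccl28* was at -3.01, -3.26 and -3.07 in WT and at -2.96, -2.98 and -1.83 in KI mice, and in the muscles at -3.08, -4.43 and -3.07 in WT and at -3.06, -2.99 and -2.17 in KI mice. The groups did not overlap in either tissue, but KI1 and KI2 lay close to the highest WT brain and the highest WT muscle, and KI3 was the highest in both. The differences were 0.53 ± 0.34 in the brain and 0.79 ± 0.44 in the muscle (adjusted p = 1 and 0.94). Without KI3 they were 0.15 in the brain and 0.50 in the muscle, and 0.85 in the liver and 0.98 in the heart. With normexp background correction, which lifts dim signals, the 4 differences were 0.26 (liver), 0.39 (brain), 0.05 (heart) and 0.27 (muscle). The CCR10 partner of this ligand, *Ccr10*, differed by at most 0.35 in any tissue, and *Ccr3* was 0.07 in the liver and -0.59 in the brain.

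**Figure D3:**
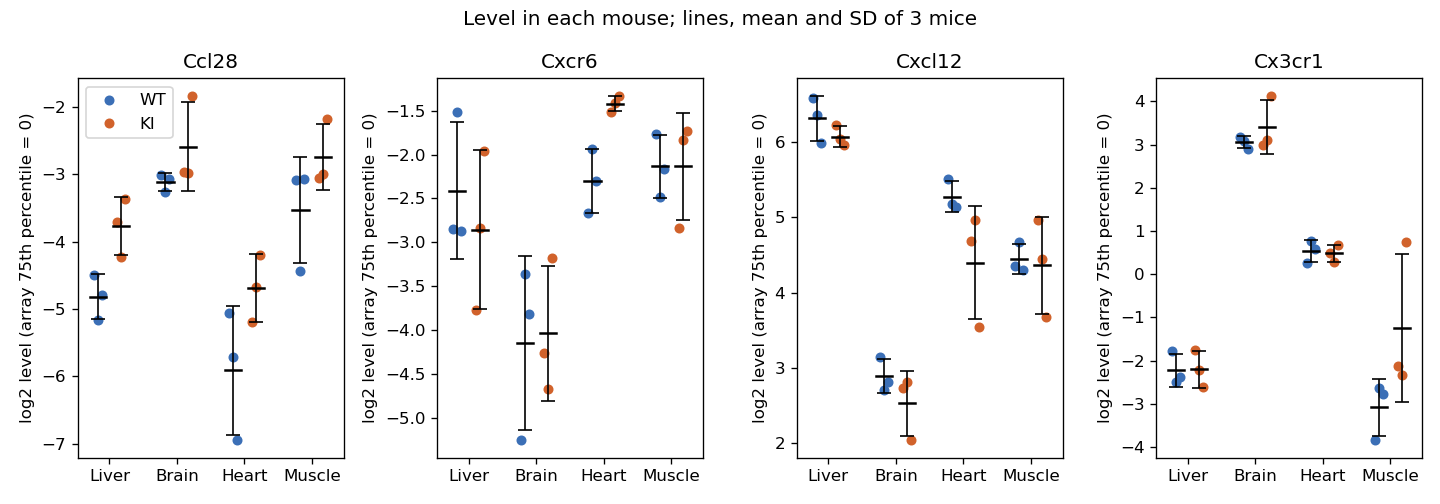
Levels of Ccl28, Cxcr6, Cxcl12 and Cx3cr1 in each mouse, on a log2 scale where 0 is the 75th percentile of the array. Blue points are WT and orange points KI mice, in the order of the mouse numbers, and lines give the mean and SD of 3 mice. Ccl28 in the heart was above background on 4 of 6 arrays and in the liver on 5 of 6, and the high Cx3cr1 value in the muscle, 0.74, belongs to KI3.

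In the brain, the positive median of the members rested on KI3. That brain held the highest level of 24 of the 35 members, while it was the highest for 16.5% of all probes, and 21 of its members were more than 1 above the WT mean. The median deviation of its members from the WT mean was 1.29, against -0.12 to 0.19 in the other 5 brains, and without KI3 the median difference of the members was 0.08. *Ccl5* was at -2.62, -3.03 and -3.15 in WT and at -2.43, -2.25 and 1.25 in KI brains. *Ccl12* was at -2.86, -2.71 and -3.07 in WT and at -2.80, -1.71 and 1.23 in KI brains. *Cxcl10* was at -2.60, -3.36 and -3.54 in WT and at -3.13, -0.31 and 1.33 in KI brains, so that KI2 and KI3 were both above WT and KI1 was among them.

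The high values of that brain took in monocyte, neutrophil and T cell ligands together. *Ccl2* was at -0.04 in KI3 against -4.17 to -2.83 in the other 5 brains, and *Ccl3* at -0.75 against -5.20 to -4.39. *Ccl8* was at 0.28 against -4.85 to -3.73 and *Cxcl5* at 1.37 against -3.89 to -2.31. In each of these 4 genes KI3 alone was high, and KI1 and KI2 lay with or near the WT mice. The same held for receptors, with *Ccr2* at -3.20 against -7.03 to -5.71, *Cxcr4* at -2.57 against -5.26 to -3.95 and *Cx3cr1* at 4.13 against 2.90 to 3.17. *Cx3cl1* was at 6.13 in KI3, the lowest of the 6 brains, and 6 of 6 neuronal marker genes were also lowest there. Beside these values, 9 of 9 macrophage genes were highest in KI3, with a sum of 144 against at most 64.1 in the other brains. So were 4 of 5 fibroblast genes (51.9 against at most 24.2) and 10 of 12 interferon gamma response genes (18.1 against at most 7.98). Of 5 microglia genes 4 were highest in KI3, such as *P2ry12*, at 1.40 against 0.67 to 1.27. The fifth, *Siglech*, was brighter in the muscles than in this brain and carried most of the sum of that list. Of 9 T and NK cell genes 4 were highest in KI3, among them *Lck*, at -0.02 against -1.07 to -0.29, while *Cd4* was lowest there, at 0.51 against 1.40 to 2.19. Their part in the chemokine levels was not tested.

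Of the 5 brain members whose groups did not overlap, 4 were higher in KI mice. Their log2 differences were 1.79 ± 0.98 for *Ccl5*, 1.63 ± 0.75 for *Ccr2*, 0.90 ± 0.50 for *Cxcl16* and 0.53 ± 0.34 for *Ccl28* (standard errors, adjusted p = 1 for each). Without KI3 they were 0.59, 0.75, 0.31 and 0.15. *Ccr2* was above background on 1 WT and 3 KI arrays. The fifth was *Ccl27a*, at 5.18, 4.86 and 5.00 in WT and at 4.57, 4.73 and 4.65 in KI brains. All KI brains were lower, by 0.36 ± 0.17 on the log2 scale, and the difference was -0.36 without KI3 as well, with -0.37 and -0.47 by the other probes of the gene.

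**Figure D4:**
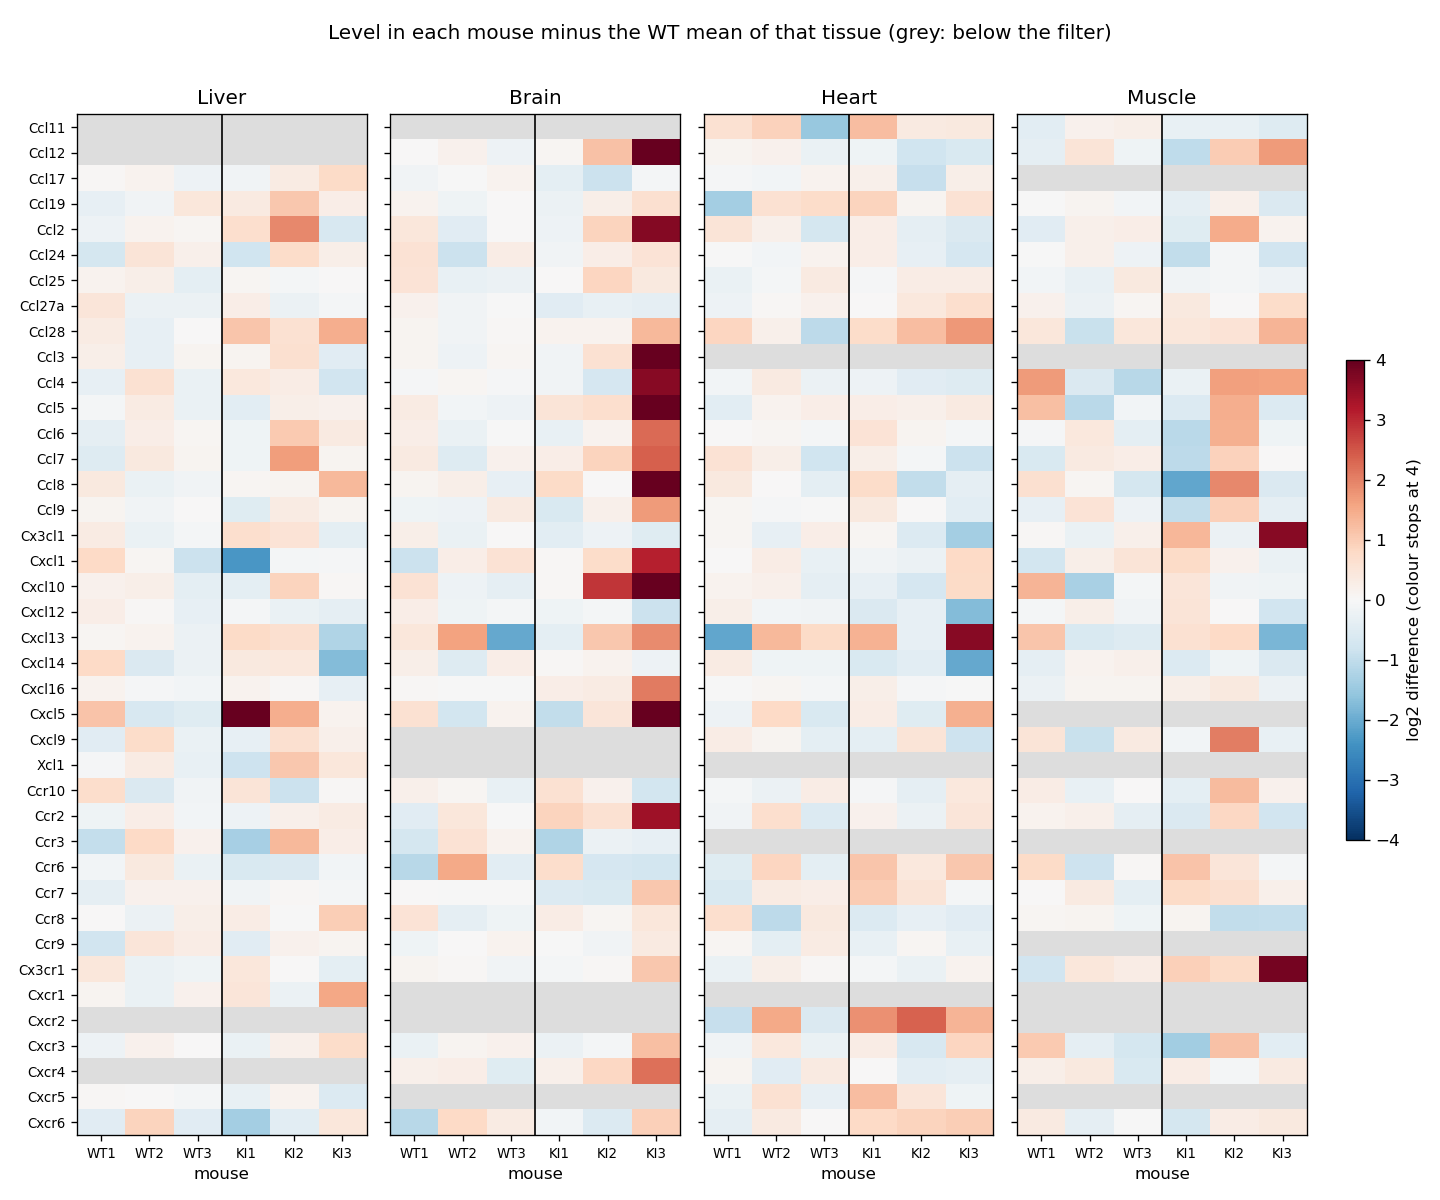
Level of each member in each mouse minus the WT mean of the tissue (log2, red higher and blue lower, colors stop at 4), for the members measured in at least 1 tissue (1 receptor is not drawn), with grey where the member was below the filter. The KI3 column of the brain is red for most members, 21 of 35 being more than 1 above the WT mean. In the muscle, Cx3cl1 and Cx3cr1 are reddest in KI3.

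In the heart, a pair of receptors and *Ccl28* had the low p-values. *Cxcr6* was at -2.67, -1.93 and -2.30 in WT and at -1.51, -1.41 and -1.33 in KI mice. The KI hearts were close together and all above WT, by 0.88 ± 0.25 (standard error, 1.85-fold, unadjusted p = 0.0091, adjusted p = 0.65), and a second probe gave 0.91. The ligand *Cxcl16* differed by less than the spread between mice in the same hearts, 0.58 to 0.74 in WT and 0.59 to 0.89 in KI. *Cxcr2*, the neutrophil receptor, was at -7.23, -4.79 and -6.87 in WT and at -4.47, -3.93 and -4.95 in KI hearts, with WT2 among the KI mice and 1 WT array above background against 3 KI arrays. Its difference was 1.84 ± 0.65 (unadjusted p = 0.026, adjusted p = 0.65), and with normexp background correction it was 0.18. Neutrophil genes summed to 5.28 to 31.8 in WT and 12.1 to 24.5 in KI hearts.

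*Cxcl12* was at 5.51, 5.18 and 5.14 in WT and at 4.69, 4.96 and 3.55 in KI hearts, and *Cxcl14* at 3.63, 3.14 and 3.13 in WT and at 2.70, 2.88 and 1.25 in KI hearts. Both were lower in every KI heart than in every WT heart, and lowest in KI3. The differences were -0.87 ± 0.39 and -1.03 ± 0.45 (standard errors, adjusted p = 0.65 for both) and, without KI3, -0.45 and -0.51. A second probe of *Cxcl12* gave 0.33 in the heart, the opposite sign. *Cxcl13* was at -5.87, -2.49 and -3.01 in WT and at -2.40, -4.11 and -0.14 in KI hearts, which overlap, and the lowest of these, WT1, is the heart with little *Myl7*. The hearts of KI1 and KI3, which held adipocyte transcripts, also had the lowest endothelial sums, 35.6 and 25.9. That of KI2 was 39.7, and those of the WT hearts were 40 to 56.2. The adipocyte sum of KI2, 35.9, was also above those of the WT hearts, 1.16 to 30.7. All 5 adipocyte genes tested in the heart were higher in KI mice at an unadjusted limma p under 0.05 (7.51% of all probes were past it). The part of these cells in the values of *Cxcl12*, *Cxcl14* and *Cxcl13* was not tested. In KI2, the remaining KI heart, the differences from the WT mean were -0.31 for *Cxcl12*, -0.42 for *Cxcl14*, 0.89 for *Cxcr6* and 1.23 for *Ccl28*. With that mouse alone as the KI group, 0 members were past an unadjusted p of 0.05 in a fit that takes its spread from the WT hearts.

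In the muscle, the fractalkine pair stood out in KI3. *Cx3cl1* was at -0.09, -0.40 and 0.08 in WT and at 1.18, -0.36 and 3.49 in KI mice, and *Cx3cr1* at -3.84, -2.62 and -2.77 in WT and at -2.12, -2.32 and 0.74 in KI mice. For *Cx3cr1* all KI muscles were above WT, by 1.84 ± 0.82 (standard error, adjusted p = 0.94) and by 0.85 without KI3. The neuronal genes summed to 50.8 in the muscle of KI3 and to at most 18.9 in the others, and *Ccl17*, which the brain carried most, was at -2.41 in that muscle against -5.56 to -4.33 in the others. Of 5 microglia genes 4 were also highest in the muscle of KI3, with a sum of 177 against 131 to 168 in the others. The part of neuronal and microglial transcripts in these values was not tested. *Ccl8* was at 0.68, 0.13 and -0.65 in WT and at -2.03, 1.99 and -0.51 in KI muscles, so that KI1 was the lowest and KI2 the highest of the 6. KI2 was highest for 13 of the 32 members, among them *Ccl2*, *Ccl5*, *Ccl6*, *Ccl9* and *Cxcl9*, and for 17.5% of all probes. Macrophage genes summed to 42.3 in KI2, 16.3 in KI1 and 25.1 to 32.6 in the others. KI2 was also highest for 6 of 6 adipocyte genes (sum 936 against 92 to 756) and 9 of 12 interferon gamma response genes (40.3 against 21.2 to 26.5). It was lowest for 5 of 6 muscle fibre genes. The part of these transcripts in the values of KI2 was not tested.

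In the liver, the largest differences in each direction were those of *Cxcl5*, at -5.06, -6.84 and -6.67 in WT and at -1.11, -4.74 and -6.05 in KI mice, and of *Cxcl1*, at 1.48, 0.76 and -0.16 in WT and at -1.64, 0.60 and 0.64 in KI mice. KI1 was thus the highest for *Cxcl5* and the lowest for *Cxcl1*, neutrophil ligands both, and the groups overlapped. *Cxcl5* was above background on 1 WT and 2 KI liver arrays. *Ccl2* was highest in KI2, at 0.67 against -1.88 to -0.55. KI2 was highest for 12 of the 37 members and for 8.07% of all probes, and 8 of its members were more than 1 above the WT mean. Macrophage genes summed to 119 in that liver against 59.3 to 91.3 in the others, and Kupffer cell genes to 120 against 69 to 103. The part of these cells in the values was not tested. *Ccl9* and *Cxcl12*, at their highest in this tissue, differed between the genotypes by less than the spread between mice.

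With the 4 tissues of each mouse averaged, 24 of the 28 members measured throughout were higher in KI mice, with a median difference of 0.22 against -0.04 over all probes. The share of all probes higher in KI mice was not counted. The averages of KI3 include its brain, where 21 of 35 members were more than 1 above the WT mean, and the count of 24 was not remade without KI3. At an unadjusted p under 0.05 there were 3 members (4.84% of all 28737 probes), and 0 passed adjustment (0% of all probes). *Ccl28* was at -3.91, -4.64 and -4.47 in WT1 to WT3 and at -3.73, -3.72 and -2.89 in KI1 to KI3, all KI above all WT, a difference of 0.90 ± 0.28 (standard error, limma unadjusted p = 0.012, adjusted p = 0.91). It was 0.24 with normexp background correction, and the gene entered this comparison through the KI hearts that passed the filter. *Ccl2* differed by 0.57 (unadjusted p = 0.034) and *Cxcl16* by 0.26 (unadjusted p = 0.048). Without KI3 the *Ccl28* difference was 0.62 and 1 member was past the unadjusted threshold, and without KI1 there were 9. A fit of all arrays for genotype differences that vary by tissue called 0 of 28 members after adjustment (0% of all probes) and 0 at an unadjusted p under 0.05 (2.05% of all probes), the lowest being *Cx3cl1* at 0.081.

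Genes that work around the receptors were read from a second list. Of its 28 genes, the platelet ligands *Pf4* and *Ppbp*, the decoy receptors *Ackr1* to *Ackr4*, G protein subunits, kinases, arrestins and proteases among them, 26 to 28 were tested in each tissue and 0 passed adjustment. By the unadjusted threshold, 1 was higher in the KI brain (*Plcb3*, a phospholipase C, by 0.55 ± 0.17, limma adjusted p = 1) and 1 in the KI muscle (*Ppbp*, by 2.27 ± 0.42, limma adjusted p = 0.94), and 0 in the liver and the heart. *Ppbp* was at -3.49, -3.58 and -4.26 in WT and at -0.61, -1.97 and -1.93 in KI muscles. In the same muscles 4 of 4 red cell genes were past the unadjusted threshold, with sums of 184 to 325 in WT and 396 to 597 in KI mice. So were 2 of 3 platelet genes tested, *Ppbp* among them, and 2 of 8 neutrophil genes. The other platelet gene, *Pf4*, had a KI minus WT difference of -0.27. Platelet sums overlapped, at 11.7 to 15.4 in WT and 9.17 to 16.9 in KI muscles. The part of these blood cell transcripts in the *Ppbp* difference was not tested. The median differences of this list were 0.11, 0.08, -0.06 and -0.07 in liver, brain, heart and muscle, and those over all probes were -0.01, -0.05, -0.02 and -0.07.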

How the data were processed

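RNA of 4 tissues from 6 mice was hybridised to 24 one-color Agilent arrays (intensity values, 3671 control spots removed, 55681 probes). The authors extracted brain and liver with one kit and heart and muscle with a kit for fibrous tissue, and the deposited intensity was read with Feature Extraction 12.0.3.1. The deposited table of score values holds the authors' z-scores of log intensity, which were recomputed from the arrays to within 0.005 and served as an alternative. Probes were named through the RefSeq accession that they carry (28331 named). The array headers use another genome build than RefSeq, so that only RefSeq promoter positions are printed. Spots of a probe were averaged and log2 processed signals were scaled to the 75th percentile of each array. Probes were tested where 3 or more of the 6 arrays of a tissue were well above background, in both tissues for tissue pairs and in all 4 for the averaged comparison and the interaction. Tests were two-sided in limma 3.58.1 (lmFit, eBayes; R 4.3.3, statmod 1.5.0), adjusted by Benjamini-Hochberg over all probes tested and read at 0.05. The sources used here state no test for the arrays. The scripts were tested on simulated data.

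All members may be named except 1 receptor, which is not reported here on its own but is in the counts, and values per mouse are given for the brightest members of each tissue, those with the lowest p-values and preset ligand and receptor groups. The members and lists were chosen with earlier results of these data known. "At least" folds set the mean of the brighter tissue over the dimmest signal that counts as above background in the other. The number of arrays, 3 per group, limits the precision. Alternatives were quantile normalization, normexp background correction (offset 50), the z-scores, other filters, the mean over probes, the mouse, slide or age as a term, WT mice alone and leaving out mice. Mouse numbers pair the tissues of 1 animal. The deviations of 2 tissues of a mouse correlated at -0.30 to 0.37 (36 pairs, median 0.07).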

Additional observations from a re-analysis of the deposited data

How the results depend on the processing

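No alternative brought a member past the adjusted threshold between the genotypes in any tissue, in the average or in the interaction. Counts at an unadjusted p under 0.05 moved. Quantile normalization gave 1 member in the brain, 1 in the heart and 1 for the interaction. Normexp background correction gave 0 in the liver, 1 in the brain, 1 for the interaction and 1 in the average, and the z-scores 1 in the brain. Without a filter the liver had 4, the brain 2, the muscle 1, the interaction 1 and the average 5, and with all 6 arrays above background 0 in the liver and 1 in the muscle. Age as a covariate gave 3 in the liver and 1 in the brain, while moderated variances with a trend and, separately, the slide gave 1 in the brain.

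All 24 arrays in 1 fit gave 5 in the brain and 2 in the muscle without a replicate block, and 5 and 2 with the mouse as replicate block (correlation 0.026). The mouse block changed no other count by over 1.5 times. Leaving out 1 mouse at a time gave 1 to 4 members for liver, 0 to 5 for brain, 2 to 4 for heart, 0 to 4 for muscle, 0 to 3 for the interaction and 1 to 9 in the average. The median differences ranged from -0.06 to 0.24 for liver, 0.08 to 0.71 for brain, -0.04 to 0.19 for heart and -0.17 to 0.36 for muscle. Without the hearts of KI1 and KI3 the heart had 0 members and a median of -0.23.

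Of 133 called differences of a member between tissues, 87 kept direction and call under every alternative that tested them, and 46 lost the call under at least 1. A difference that a stricter filter left untested was not counted as lost. Normexp turned *Ccr6* (-0.19) and *Ccl4* (-0.06) for liver minus muscle, *Ccr10* (-0.17) and *Ccl4* (-0.07) for brain minus muscle and *Ccr10* (-0.12) for heart minus muscle. The mean over probes turned *Ccl27a* for liver minus heart (-0.28). Without a filter, 17 members were higher in liver than muscle, 14 in muscle than liver, 29 in heart than brain, 10 in brain than muscle and 29 in muscle than brain, since more were tested. With all 6 arrays above background, 5 were higher in brain than liver, 7 in liver than muscle and 3 in brain than muscle, and normexp gave 3 for the last. The slide as a block gave 4 higher in liver than heart, 5 in heart than liver, 7 in liver than muscle and 2 in muscle than liver. The causes were not tested. Dim probes near background, such as those of *Ccl28* and *Cxcr2*, have the least certain values.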
